A study of Mus musculus with 9 samples.

Results

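Control CD4+ T cells of the mouse, stimulated for 24 h, are described here gene by gene from the 3 control libraries of a series of 9. The control libraries were chosen by their label, wt (wild type), and no measured value entered the choice. The other libraries come from T cells with Fosl2 overexpression (Fosl2 Tg) and from cells labelled Fosl2 KO, Fosl2 being an AP-1 transcription factor gene, and are not used below. All were made from naive cells sorted as CD4+ with high CD62L and low CD44, then cultured with antibodies to CD3 and CD28, and sequenced as directional poly-A RNA. Unstimulated cells were not analysed here, so every value below is a level at 24 h and none is a change. The labels do not give the age of the mice, or whether the 3 libraries came from separate animals, so the spread between them may be technical.

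A naive CD4+ T cell is a small quiescent cell that recirculates through lymph nodes. Engagement of the T cell receptor together with CD28 triggers calcium, NF-κB and AP-1 signalling, secretion of IL-2, growth in size, a switch to aerobic glycolysis and entry into the cell cycle. Cytokines in the surroundings then steer the cell to a helper lineage such as Th1, Th2, Th17 or regulatory T cells, each with a master transcription factor and cytokines of its own.

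The promoters of 4 cytokine genes are shown because these genes lay far apart in level: Il2 averaged 160 FPKM and Tnf 81.2 FPKM, while Ifng, the Th1 cytokine gene, averaged 0.173 FPKM and Il4, the Th2 cytokine gene, was listed at 0 in 2 libraries. FPKM, the authors' unit, counts fragments per kilobase of each transcript after scaling for library depth. Each sequence is the 250 bases before the gene's start, read 5′ to 3′ on the gene's strand, from RefSeq (build GRCm38.p6). Capitals mark GGAAAA or its reverse complement TTTTCC, the core of the sites bound by NFAT, the calcium-regulated factor of T cell activation.
Il2 promoter (chr3:37125955-37126204, minus strand): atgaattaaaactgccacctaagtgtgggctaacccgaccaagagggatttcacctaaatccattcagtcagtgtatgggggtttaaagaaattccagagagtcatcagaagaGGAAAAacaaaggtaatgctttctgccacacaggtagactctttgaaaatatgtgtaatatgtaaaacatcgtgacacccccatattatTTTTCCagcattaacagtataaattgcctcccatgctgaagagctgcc
Tnf promoter (chr17:35202008-35202257, minus strand): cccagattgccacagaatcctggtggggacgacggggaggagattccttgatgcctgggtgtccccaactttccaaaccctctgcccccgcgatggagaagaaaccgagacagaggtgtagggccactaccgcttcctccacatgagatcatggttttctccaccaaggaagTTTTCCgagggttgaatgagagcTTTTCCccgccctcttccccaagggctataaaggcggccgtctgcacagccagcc
Ifng promoter (chr10:118440796-118441045, plus strand): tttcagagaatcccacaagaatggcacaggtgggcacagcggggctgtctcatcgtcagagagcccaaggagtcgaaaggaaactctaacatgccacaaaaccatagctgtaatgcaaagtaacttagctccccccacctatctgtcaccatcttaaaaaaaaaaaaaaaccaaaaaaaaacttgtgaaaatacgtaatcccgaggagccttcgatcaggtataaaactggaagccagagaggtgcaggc
Il4 promoter (chr11:53618666-53618915, minus strand): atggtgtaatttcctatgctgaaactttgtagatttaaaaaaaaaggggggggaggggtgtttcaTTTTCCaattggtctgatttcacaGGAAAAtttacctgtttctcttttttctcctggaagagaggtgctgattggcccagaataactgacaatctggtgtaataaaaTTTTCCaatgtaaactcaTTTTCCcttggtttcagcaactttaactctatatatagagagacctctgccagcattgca
GGAAAA occurred 2 times in the Il2 window, 2 times in Tnf, 0 times in Ifng and 4 times in Il4, counting both strands, and 20.4% of all 32851 promoter windows of this length held it. The AP-1 motif TGANTCA was in none of the 4 windows and in 6.75% of all windows. TATAAA, the TATA box, was in the Il2, Tnf and Ifng windows and in 12.4% of all windows. None of these matches overlapped another, and a match of letters is a description and not a binding site. The Il4 window held the most GGAAAA matches of the 4 and belonged to the gene with the lowest level.

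Genes whose FPKM averaged 1 or more across the control libraries are called expressed, a gene is called near 0 where it was below 0.1 FPKM in each, and the others are called low. The table named 20126 protein-coding genes, of which 9683 (48.1%) were expressed, 8429 (41.9%) were near 0 and 2014 were low. These shares are the background for each group of genes. The estimated depth was 45.9, 45.2 and 50.8 M fragments in libraries 1, 2 and 3. An FPKM of 1 over 2 kb therefore stood for about 91.8, 90.4 and 101.6 fragments, and 3 fragments over 2 kb for about 0.0327, 0.0332 and 0.0295 FPKM. These precisions cover counting error only.

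Genes of the translation machinery held a large share of the summed FPKM and most of the highest ranks. The 84 ribosomal protein genes held 27.9%, 27.4% and 29.1% of the FPKM summed over protein-coding genes in libraries 1, 2 and 3. The highest gene was Eef1a1, which encodes the elongation factor that brings aminoacyl-tRNA to the ribosome, at 6110, 5921 and 6520 FPKM. Of the 20 named genes with the highest mean, 16 encode ribosomal proteins (Rps12, Rplp1, Rpl41, Rps29, Rpl23a, Rpl12, Rps20, Rps2, Rps18, Rps4x, Rplp0, Rpl32, Rplp2, Rps3a1, Rpl10 and Rpl35), with Rps12 the highest of them at 4562 ± 316 FPKM (SD, n = 3). The other 4 were Eef1a1, Tpt1 (3532 ± 136 FPKM), the cyclophilin gene Ppia (3081 ± 270 FPKM) and Npm1, the nucleolar chaperone gene (2713 ± 298 FPKM). Ribosomal protein genes, Eef1a1 and Ppia have many near-identical processed pseudogenes, so the value of each gene alone is uncertain.

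The 10 highest genes held 7.47% ± 0.192 (SD, n = 3) of the protein-coding FPKM, the 100 highest 38.6% ± 0.955 and the 1000 highest 68.9% ± 1.19. Expressed genes had a median of 14.4 FPKM (quartiles 5.85 and 34.6), 5898 reached 10, 751 reached 100 and 85 reached 1000. The best-known genes of the activated T cell lay between these ends, below structural genes such as Actb (cytoplasmic actin, 2129 ± 81.1 FPKM) and above the master factors of the helper lineages.

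**Figure D1:**
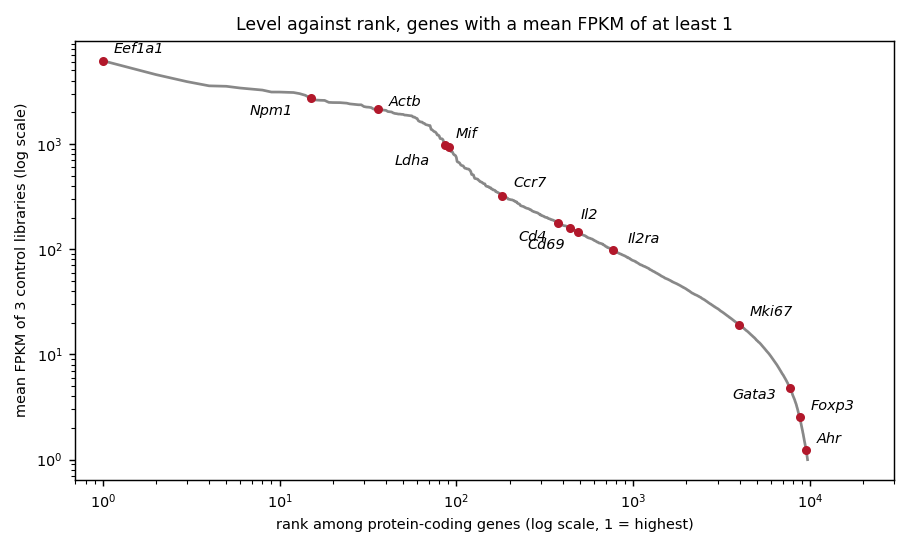
Mean FPKM of the 3 control libraries (log scale) against rank among protein-coding genes (log scale), for the 9683 genes with a mean of at least 1, with named genes as red points. Eef1a1 had rank 1, Ccr7 rank 182, Cd4 rank 377, Il2 rank 439, Il2ra rank 768 and Foxp3 rank 8722.

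The label held against the markers of a CD4+ T cell. Cd4 (chromosome 6, 124864693 to 124888209) had 184, 186 and 165 FPKM in libraries 1, 2 and 3, a mean of 178 ± 11.8 (SD, n = 3). The CD3 chain gene Cd3e had 160, 164 and 153 FPKM, Cd3g 201, 190 and 211 FPKM, and Cd3d 154, 148 and 160 FPKM. All 5 genes of the receptor complex with an entry were expressed, and the zeta chain gene Cd247 was the lowest of them at 102 to 112 FPKM. The 25 genes of proximal receptor signalling were all expressed as well, against 48.1% of all protein-coding genes, with a median of 59.8 FPKM. Cd5, which dampens receptor signals, had 333, 369 and 353 FPKM, and Ptprc, the CD45 phosphatase gene, had 357, 342 and 318 FPKM. The adaptor gene Lat (270, 274 and 278 FPKM) and the kinase gene Lck (269, 272 and 261 FPKM) followed. The kinase gene Zap70, which binds the phosphorylated zeta chain, had 190, 205 and 190 FPKM, and the libraries differed little for any of these genes.

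Most markers of other cell types were low or near 0, whereas 48.1% of all protein-coding genes were expressed. None of the 10 B cell markers was expressed, and their summed FPKM was 1.11 in the lowest and 2.10 in the highest library, with Cd79b at 0.558, 0.509 and 0.848 FPKM. Of 20 myeloid and dendritic markers 2 were expressed, Cst3 and Cd68, and the monocyte and macrophage genes Lyz2, Csf1r and Cd14 were listed at 0 in every library. The summed FPKM of that list was 38.2 to 39.1, nearly all of it Cst3, the broadly expressed cystatin C gene. Of 10 NK and innate lymphoid markers 3 were expressed (Il2rb, Eomes and Klrd1), genes that activated T cells can also express, and Ncr1 and Klrb1c were listed at 0. The list summed to 91.5 to 102.9 FPKM, nearly all of it Il2rb. Markers of gamma delta T cells (0 of 3), red cells and platelets (0 of 7) and mast cells and basophils (0 of 7) were not expressed, with summed FPKM of at most 0.145, 0.395 and 0.044. Of 15 stromal, endothelial and epithelial markers 3 were expressed, summing to 38.3 to 47.5 FPKM. They were Vim, the vimentin gene that lymphocytes also express (25.7, 22.1 and 23.3 FPKM), Pecam1 and Epcam, and the fibroblast genes Col1a2, Col3a1 and Dcn were listed at 0. In bulk libraries, a few cells of a type and little RNA per cell cannot be told apart.

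The CD8 lineage gave an uneven picture. Cd8a, which encodes the alpha chain of the CD8 co-receptor, had 0.462, 0.407 and 0.407 FPKM, or about 66, 58 and 65 fragments. Cd8b1, the beta chain gene, had 11.4, 12.4 and 11.6 FPKM, or about 779, 829 and 877 fragments. Cd8b1 was thus 27.9 ± 2.85 times Cd8a (SD, n = 3), while Cd4 was 15.1 ± 0.952 times Cd8b1 and 420 ± 32.5 times Cd8a. The 3 libraries gave the same order of the 3 co-receptor genes.

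Genes of the naive state were still expressed at 24 h. All 12 members of the naive surface and homing list and all 17 regulators of the naive and quiescent state, most of them transcription factors, were expressed. The expressed share over all protein-coding genes was 48.1%. Ccr7, the receptor gene that brings naive T cells into lymph nodes, had 321, 322 and 326 FPKM (mean 323 ± 2.42, SD, n = 3), with a coefficient of variation (CV, SD over mean) of 0.749%. The 3 libraries were nearly equal for this gene. S1pr1, the receptor gene for exit from lymph nodes, had 21.2, 13.6 and 10.3 FPKM. Il7r, the gene of the survival receptor of resting T cells, had 16.6, 10.5 and 7.59 FPKM. Both had library 1 highest and library 3 lowest, with CVs of 37.1% and 40.0%. Other members of the surface list were Actn1 (93.5, 93.6 and 84.5 FPKM), the costimulatory receptor gene Cd27 (69.4, 63.3 and 59.6 FPKM) and Igfbp4 (53.4, 52.8 and 50.4 FPKM).

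Among the regulators of naive and resting T cells, the Schlafen family gene Slfn2, required for T cell quiescence, had 307, 333 and 364 FPKM. Tcf7, the gene of TCF-1, had 243, 224 and 198 FPKM, and Lef1, its partner of the same family, had 85.1, 78.3 and 77.6 FPKM. The E protein inhibitor gene Id3 had 145, 169 and 158 FPKM and Ets1 123, 107 and 93.9 FPKM. These levels placed Tcf7 at rank 286 of all protein-coding genes. Klf2, which drives S1pr1 in resting T cells, had 39.4, 24.5 and 23.0 FPKM. Foxo1, which acts upstream of Klf2 and Il7r, had 20.6, 17.6 and 16.8 FPKM, and Bach2, a repressor of effector genes, had 43.3, 42.0 and 34.1 FPKM. In all 3 of these genes library 1 was highest and library 3 lowest.

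Surface genes of activation stood beside those of the naive state. Of 21 members 18 were expressed (85.7%, against 48.1% of all protein-coding genes). Tnfrsf4, the OX40 gene, had 242, 284 and 286 FPKM, the highest of the list. Cd69, the early activation antigen that retains T cells in lymph nodes, had 141, 148 and 144 FPKM, and Tfrc, the transferrin receptor gene, had 170, 182 and 182 FPKM. The libraries differed for Cd69 and Tfrc by CVs of 2.55% and 3.85%. The median CV was 4.86% over the expressed members of this list and 18.9% over those of the naive surface list. Tnfrsf18 (GITR) had 138, 145 and 148 FPKM and Cd200 127, 140 and 157 FPKM. The costimulatory genes Cd40lg (77.7, 86.2 and 76.2 FPKM), Tnfrsf9, or 4-1BB (72.1, 70.0 and 70.7 FPKM), and Icos (52.6, 55.2 and 55.3 FPKM) were lower. Cd44, a marker of activation and memory that was low on the sorted cells, had 18.4, 19.9 and 19.8 FPKM. The 3 members that were not expressed were Tnfrsf8, Cd38 and Cd86, all below 0.3 FPKM in every library.

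Il2ra, the gene of the IL-2 receptor alpha chain (CD25), had 102, 96.3 and 94.3 FPKM, and was 9.25 ± 3.15 times Il7r (SD, n = 3). The shared chain gene Il2rg had 341, 341 and 355 FPKM, and the beta chain gene Il2rb 96.1, 98.3 and 86.1 FPKM. The complete high-affinity IL-2 receptor was thus represented at high levels. Of 36 cytokine receptor chain genes 24 were expressed (66.7%, against 48.1% of all protein-coding genes). Among them were Il21r (48.3, 49.3 and 47.4 FPKM) and Il27ra (46.7, 44.0 and 41.6 FPKM). The chain genes that make a cell responsive to lineage cytokines were unequal. Il12rb1 had 28.1, 33.2 and 29.6 FPKM, whereas Il12rb2, needed with it for IL-12 and Th1 signalling, had 0.345, 0.449 and 0.360 FPKM. Il4ra, the Th2 receptor chain gene, had 31.1, 30.4 and 28.9 FPKM, and the IL-6 chains Il6st and Il6ra had 31.1, 28.6 and 22.2 FPKM and 22.4, 19.9 and 17.0 FPKM. Il23r, the Th17 maintenance receptor gene, was listed at 0 in libraries 1 and 3 and at 0.00898 FPKM in library 2. The IL-33 receptor gene Il1rl1 stayed at 0.0765 to 0.144 FPKM.

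Co-inhibitory genes were expressed in 11 of 16 cases (68.8%, against 48.1% of all protein-coding genes). Btla had 108, 113 and 116 FPKM. Pdcd1, the PD-1 gene, had 63.8, 76.4 and 71.3 FPKM, and Ctla4, which competes with CD28 for its ligands, had 56.9, 57.6 and 60.6 FPKM. Vsir (VISTA) had 66.8, 65.0 and 57.9 FPKM, the PD-L1 gene Cd274 38.9, 38.6 and 33.0 FPKM, and Lag3 31.1, 35.5 and 34.4 FPKM. Against these, Havcr2, the TIM-3 gene, had 0.0160, 0.0326 and 0.0145 FPKM and Cd244 was listed at 0. Entpd1, the CD39 gene, was below 0.1 FPKM in every library, while its partner enzyme gene Nt5e (CD73) had 2.80, 3.14 and 2.22 FPKM. Cd28 itself had 157, 150 and 148 FPKM, 2.60 ± 0.155 times Ctla4 (SD, n = 3).

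The cytokine genes split into a few that were high and a majority near 0. Of 38 members 11 were expressed and 21 were near 0, against 48.1% and 41.9% of all protein-coding genes. Il2 (chromosome 3, 37120716 to 37125954), the T cell growth factor gene, had 138, 172 and 169 FPKM, a mean of 160 ± 18.9 (SD, n = 3). Tnf had 81.2, 87.6 and 74.8 FPKM, and its neighbours on chromosome 17, Ltb and Lta, which encode lymphotoxins, had 181, 158 and 162 FPKM and 74.9, 74.7 and 68.3 FPKM. Il2 was 1.97 ± 0.279 times Tnf (SD, n = 3) and the spread over libraries was small beside the distance to the lineage cytokines. Mif, a broadly expressed cytokine gene, was the highest of the list at 904, 970 and 1071 FPKM, and Tgfb1, an immunosuppressive cytokine gene, had 77.0, 80.9 and 78.4 FPKM. The STAT3-activating cytokine genes Osm and Lif were lower at 5.53, 5.65 and 5.34 FPKM and 4.92, 5.15 and 4.91 FPKM.

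None of the signature cytokine genes of the helper lineages reached 1 FPKM. Ifng (Th1) had 0.0988, 0.242 and 0.179 FPKM, about 5, 13 and 11 fragments. Il4 (Th2) was listed at 0 in libraries 1 and 2 and at 0.0448 FPKM in library 3, and Il5 had a value above 0 in library 2 alone (0.0306 FPKM). Il13 (Th2), Il17a and Il22 (Th17), and Il9 were listed at 0 in all 3 libraries. Il17f had 0.0203, 0.0830 and 0.0736 FPKM, Il10 was listed at 0 in library 1 and had 0.0368 and 0.0653 FPKM in libraries 2 and 3, and the follicular helper cytokine gene Il21 was below 0.01 FPKM in every library. At such levels a library held a handful of fragments, and an order between these genes cannot be read. Higher than these, and close to the threshold or just under it, were the growth factor genes Il3 (0.454, 1.33 and 1.31 FPKM) and Csf2 (0.428, 0.607 and 0.451 FPKM), which lie beside each other on chromosome 11. Library 1 was the lowest for both, with about 13 and 16 fragments.

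Chemokine genes followed the same split, with 3 of 20 expressed and 11 near 0, against 48.1% and 41.9% of all protein-coding genes. The inflammatory chemokine genes Ccl4 and Ccl3 had 40.4, 55.0 and 59.4 FPKM and 5.94, 8.29 and 10.0 FPKM. Xcl1, which attracts cross-presenting dendritic cells, had 11.4, 14.4 and 18.4 FPKM. All 3 were lowest in library 1 and highest in library 3. Ccl5 had 0.172, 0.590 and 0.876 FPKM. Among 23 chemokine and related migration receptor genes 10 were expressed (43.5%, near the 48.1% of all protein-coding genes), led by Ccr7. S1pr4 (27.5, 21.3 and 19.7 FPKM) and the oxysterol receptor gene Gpr183 (18.6, 18.3 and 20.2 FPKM) came next, and the Th2-associated Ccr4 had 10.1, 11 and 9.76 FPKM and Ccr8 6.92, 7.03 and 6.58 FPKM. Receptors tied to other lineages were around the threshold or below it: Cxcr3 (Th1) had 0.925, 0.841 and 1.07 FPKM, Cxcr5 (follicular helper) 0.743, 0.825 and 0.864 FPKM and Ccr6 (Th17) 1.2, 1.55 and 1.18 FPKM, while Ccr9 stayed below 0.2 FPKM.

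Of 32 helper lineage transcription factor genes 19 were expressed, 8 were low and 5 were near 0. The expressed share was 59.4%, against 48.1% of all protein-coding genes. The highest was Irf4, whose level follows the strength of the receptor signal, at 156, 179 and 162 FPKM, followed by Ikzf1 (Ikaros) at 147, 141 and 135 FPKM. Zbtb7b, the ThPOK gene that fixes the CD4 fate in the thymus, had 30.8, 30.6 and 29.3 FPKM. Batf, the partner of IRF4 at AP-1 composite sites, had 23.5, 28.2 and 30.0 FPKM, and Irf8 had 21.1, 24.5 and 22.2 FPKM. Library 1 was the lowest for Irf4, Batf and Irf8, and Batf, with a CV of 12.2%, varied the most of these 5.

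Among the master factors, Gata3 (Th2) had 5.07, 4.84 and 4.51 FPKM (mean 4.81 ± 0.280, SD, n = 3), Bcl6 (follicular helper) had 4.87, 4.64 and 3.72 FPKM, and Foxp3 (regulatory T cells) had 3.03, 2.27 and 2.34 FPKM. Gata3 was above Bcl6 in each library, although their ranges over the libraries overlapped, and Foxp3 lay below both. Tbx21, the T-bet gene of Th1 cells, had 0.111, 0.140 and 0.218 FPKM, about 13, 16 and 28 fragments, although the related Eomes had 4, 3.48 and 4.04 FPKM. Prdm1, the Blimp-1 gene that opposes Bcl6, had 0.0861, 0.0626 and 0.0782 FPKM. Ikzf2 (Helios), a marker of thymic regulatory T cells, had 0.460, 0.469 and 0.399 FPKM. Maf and Rora, which act in follicular helper and Th17 cells, were below 0.5 FPKM in every library. Ahr, the aryl hydrocarbon receptor gene, lay just above the threshold at 1.2, 1.45 and 1.06 FPKM. Zbtb16, the PLZF gene of innate-like T cells, was below 0.01 FPKM in every library.

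**Figure D2:**
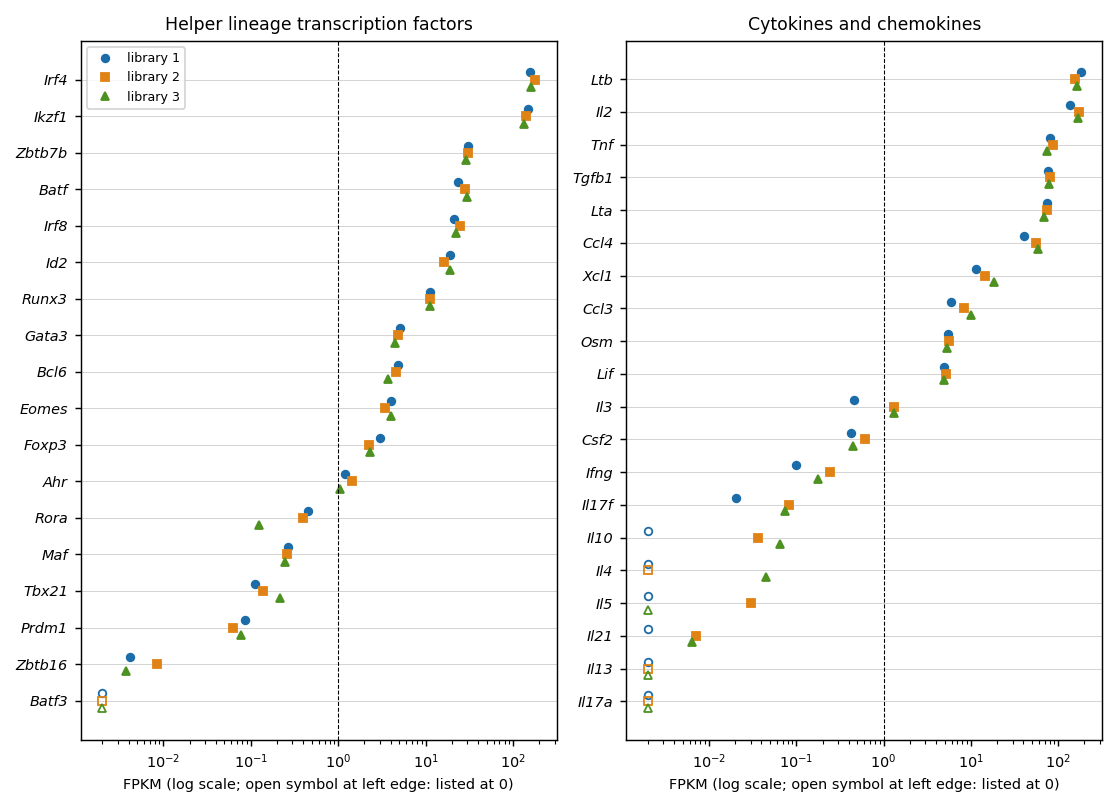
FPKM (log axis) of helper lineage transcription factor genes (left) and cytokine and chemokine genes (right), with a symbol for each of the 3 control libraries. Open symbols at the left edge are values listed at 0 and the dashed line is an FPKM of 1. Irf4 and Il2 lie above 100 FPKM, Gata3, Bcl6, Eomes and Foxp3 between 2 and 10, and Tbx21, Ifng and Il4 below 1.

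Signalling and early response genes were broadly expressed, beside 48.1% of all protein-coding genes. All 19 JAK, STAT and SOCS genes and all 12 NF-κB genes were expressed, as were 11 of 12 NFAT, NR4A and EGR genes and 14 of 17 AP-1 genes. Nr4a1, the Nur77 gene used as a reporter of receptor signalling, had 215, 206 and 190 FPKM, 22.9 ± 0.525 times its relative Nr4a2 (SD, n = 3). Egr3 and Egr1, zinc finger genes induced by receptor signals, had 83.9, 84.6 and 63.3 FPKM and 70.5, 70.7 and 60.2 FPKM. Nfatc1 had 59.3, 59.1 and 47.0 FPKM and Nr4a3 58.7, 57.8 and 43.9 FPKM. For all 5 genes library 3 was the lowest. Nfkb1 led the NF-κB list with 211, 227 and 207 FPKM, ahead of the inhibitor gene Nfkbia (128, 130 and 136 FPKM) and Nfkbid (99.1, 116 and 95.0 FPKM). Atf4, the stress and amino acid response factor, led the AP-1 and related list with 160, 173 and 183 FPKM, followed by Jund (120, 114 and 134 FPKM) and Junb (107, 112 and 116 FPKM). The Fos partners were far lower, with Fos at 7.32, 7.71 and 7.01 FPKM and Fosl2 at 7.77, 7.44 and 6.15 FPKM, and Jun had 3.83, 3.96 and 4.50 FPKM. Jak1 (85.3, 78.3 and 70.9 FPKM), Stat6 (69.6, 73.4 and 67.0 FPKM) and Stat5a (66.1, 65.0 and 61.1 FPKM) led the JAK and STAT genes, and Cish, a feedback inhibitor induced by STAT5, had 41.7, 40.5 and 38.7 FPKM.

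Ribosome biogenesis, translation factor and chaperone genes were nearly all expressed. Myc, the driver of metabolic growth in activated T cells, had 176, 194 and 180 FPKM (mean 183 ± 9.23, SD, n = 3), while Mycn and Mycl, its paralogs, had at most 0.111 FPKM. All 24 ribosome biogenesis genes, 15 of 16 translation factor genes and 18 of 20 chaperone genes were expressed, against 48.1% of all genes. Without values from unstimulated cells, these counts do not show whether the genes were induced. Npm1 had 2461, 2637 and 3042 FPKM, Ncl (nucleolin) 427, 464 and 502 FPKM and Fbl (fibrillarin) 386, 417 and 457 FPKM. Hspa8 and Hsp90ab1, constitutive cytosolic chaperone genes, averaged 2402 ± 142 and 2141 ± 98.9 FPKM, whereas the stress-induced Hspa1a and Hspa1b stayed below 0.5 FPKM in every library. Ddit3, the CHOP gene of the terminal unfolded protein response, had 9.73, 9.59 and 9.82 FPKM.

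Glycolysis genes were expressed at high levels through a small set of isoforms. Of 19 glycolytic enzyme genes 14 were expressed (73.7%, against 48.1% of all protein-coding genes). They were led by Pkm (622, 700 and 719 FPKM), Pgk1 (462, 501 and 560 FPKM) and Aldoa (436, 475 and 496 FPKM). Ldha, which makes lactate, had 847, 938 and 998 FPKM and was 97.4% ± 0.322 (SD, n = 3) of the lactate dehydrogenase FPKM. Eno1 was 93.3% ± 0.239 of the enolase FPKM and Aldoa 99.8% ± 0.0333 of the aldolase FPKM. Gapdh had 175, 201 and 205 FPKM, but its many processed pseudogenes make that level uncertain. The entry steps were lower and more mixed. Slc2a1, the GLUT1 gene, had 26.9, 29.3 and 28.2 FPKM and was 77.6% ± 2.10 of the class I glucose transporter FPKM, the rest being nearly all Slc2a3. Hk1 had 33.6, 34.7 and 33.3 FPKM and Hk2 16.8, 19.5 and 18.9 FPKM, so that Hk1 was 64.8% ± 1.60 of the hexokinase FPKM. Phosphofructokinase was shared between Pfkl (36.0, 37.9 and 39.6 FPKM) and Pfkp (34.4, 36.9 and 36.6 FPKM). Lactate export was represented by Slc16a1 (MCT1), at 50.2, 54.2 and 58.5 FPKM, rather than by Slc16a3 (MCT4), at 4.12, 4.54 and 4.34 FPKM.

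Mitochondrial and biosynthetic genes were expressed beside those of glycolysis. All 18 genes of glutaminolysis and the TCA cycle and 21 of 24 oxidative phosphorylation genes were expressed, against 48.1% of all protein-coding genes. The ATP synthase gene Atp5b had 737, 805 and 825 FPKM and Mdh2, mitochondrial malate dehydrogenase, 274, 294 and 302 FPKM. The 3 oxidative phosphorylation genes below the threshold, Cox7a1, Cox4i2 and Cox6a2, are isoforms best known from muscle and lung. Glutamine use was represented by the transporter gene Slc1a5 (178, 187 and 168 FPKM). The large neutral amino acid transporter, a pair of chains, was represented by Slc7a5 (78.2, 86.0 and 77.2 FPKM) and Slc3a2 (58.1, 61.7 and 61.0 FPKM). The cystine transporter gene Slc7a11 stayed below 0.5 FPKM. Serine and folate genes were expressed in 10 of 12 cases, with Shmt2 at 175, 199 and 196 FPKM, Phgdh at 149, 172 and 185 FPKM and Psat1 at 116, 133 and 132 FPKM.

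The counts of nucleotide, polyamine and lipid genes below stand beside 48.1% of all protein-coding genes expressed. All 20 nucleotide synthesis genes were expressed, led by Impdh2, the rate-limiting enzyme gene of guanine nucleotide synthesis, at 262, 281 and 305 FPKM. All 7 polyamine genes were expressed, with Srm at 244, 276 and 288 FPKM and Odc1, the rate-limiting ornithine decarboxylase gene, at 235, 272 and 276 FPKM. In lipid metabolism 17 of 18 synthesis genes and 9 of 11 fatty acid oxidation genes were expressed. The synthesis list had a median of 31.1 FPKM and included Fdps (73.5, 79.2 and 94.4 FPKM), Fasn, the fatty acid synthase gene (72.0, 77.6 and 60.8 FPKM), and the cholesterol pathway regulator Srebf2 (80.7, 84.2 and 73.3 FPKM). The oxidation list had a median of 14.4 FPKM, and Cpt1a, its rate-limiting gene, had 4.71, 4.53 and 3.99 FPKM. The regulators Ppara and Ppargc1a were near 0. Scd2 was 98.5% ± 0.385 of the stearoyl-CoA desaturase FPKM, and Scd1, the main form in liver, stayed below 0.5 FPKM.

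Over 26 families of related genes, the leading member held over 50% of the family's FPKM in 21 and over 90% in 11. In 5 families no member held 50%. Stat6 led 7 STAT genes with 27.2% ± 0.800 (SD, n = 3), Jak1 led the Janus kinases with 41.1% ± 1.5 and Egr3 its family with 43.5% ± 2.17. Pfkl led the phosphofructokinase subunits with 47.7% ± 0.716. In the Fos family Fos and Fosl2 held 42.5% ± 2.14 and 41.0% ± 1.89, closer than their SDs, and Fosl2 was the higher in library 1. Jund held 51.4% ± 1.60 of the Jun family and Nfatc1 57.2% ± 0.478 of the calcium-regulated NFAT genes. At the other end, Myc and Tgfb1 each held 99.9% of their families.

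**Figure D3:**
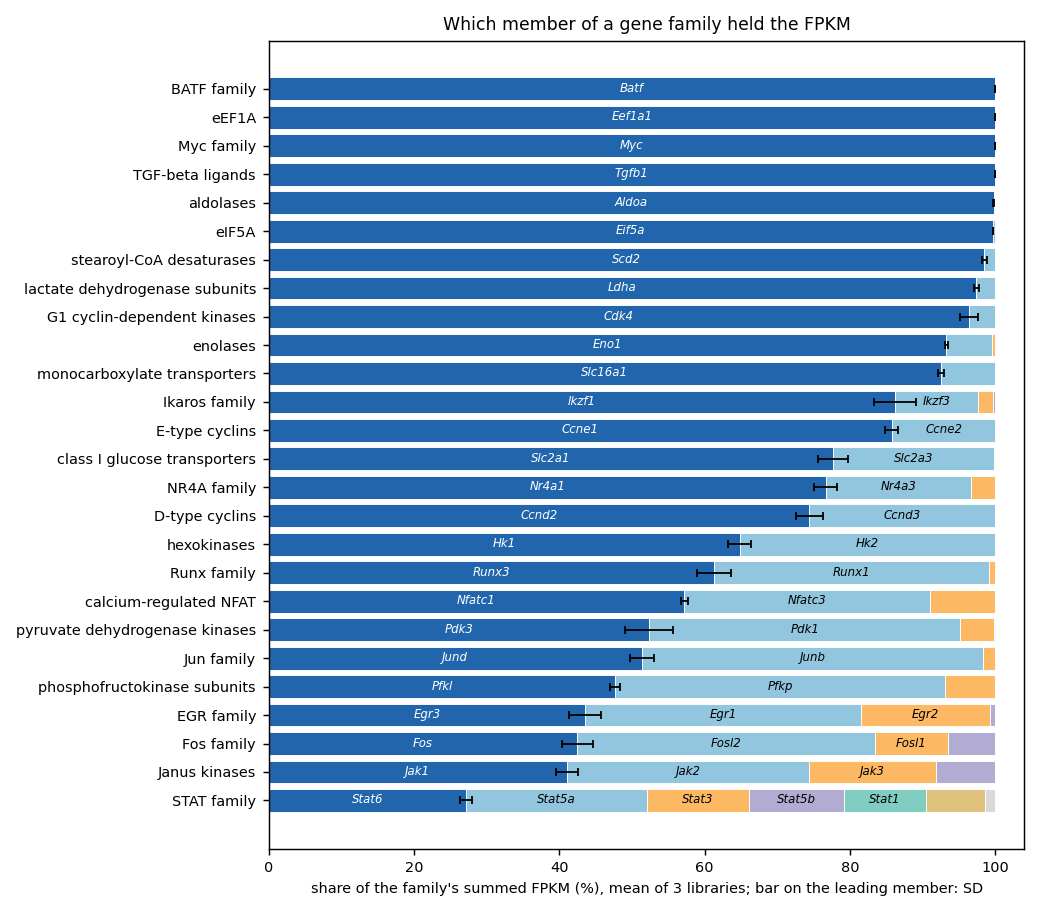
Share of each family's summed FPKM (%) held by its members, as the mean of 3 control libraries, with the leading member at the left and its SD as a black bar. Myc, Tgfb1, Aldoa and Scd2 fill over 98% of their bars, whereas Stat6 fills 27.2% and Jak1 41.1%.

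The cell cycle genes covered G1, S phase and mitosis. Cdk4 had 261, 291 and 306 FPKM and was 96.3% ± 1.23 (SD, n = 3) of the Cdk4 and Cdk6 FPKM, and Ccnd2 had 193, 192 and 168 FPKM, 74.4% ± 1.88 of the D-type cyclin FPKM. The inhibitor gene Cdkn1b (p27), which holds resting T cells out of the cycle, had 19.4, 14.5 and 14.5 FPKM. All 21 DNA replication genes were expressed with a median of 61.9 FPKM, led by Pcna, the sliding clamp gene, at 525, 571 and 663 FPKM and by the helicase genes Mcm6 (237, 252 and 268 FPKM) and Mcm3 (209, 234 and 242 FPKM). All 20 mitosis genes were expressed too, with a median of 12.3 FPKM. Both counts stand beside 48.1% of all protein-coding genes expressed. Top2a had 52.8, 61.9 and 64.0 FPKM, Birc5 30.1, 36.3 and 44.8 FPKM and Mki67, the Ki-67 gene, 18.8, 20.4 and 18.4 FPKM. Pcna was 30.7 ± 4.68 times Mki67. The mitosis list thus lay lower than the replication list, and library 1 was the lowest for most members of both.

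Survival and effector genes were mixed, and the counts below stand beside 48.1% of all protein-coding genes expressed. Of 18 BCL2 family genes 15 were expressed, led by the anti-apoptotic Bcl2a1b (151, 166 and 186 FPKM), whose near-identical neighbours Bcl2a1a and Bcl2a1d make the split between them uncertain. Bax had 140, 150 and 154 FPKM, Bcl2l1 (Bcl-xL) 100, 108 and 109 FPKM and Mcl1 106, 94.9 and 107 FPKM, whereas Bcl2 itself had 16.5, 13.3 and 11.6 FPKM. Cytotoxic genes were expressed in 6 of 15 cases (40%), near the share of all genes. Srgn, the granule proteoglycan gene that many blood cells express, had 310, 334 and 354 FPKM. Gzmb had 1.02, 0.888 and 1.55 FPKM, Prf1 (perforin) was below 1 FPKM in every library and Gzma was listed at 0. Of 21 interferon response genes 7 were expressed, 12 low and 2 near 0, and at a threshold of 0.5 FPKM 11 would count as expressed, with Bst2 at 46.7, 53.7 and 55.7 FPKM and Isg15 at 1.05, 0.683 and 0.570 FPKM. MHC class I genes were high, B2m at 1044, 997 and 1058 FPKM, while the class II gene H2-Ab1 had 0.240, 0.266 and 0.399 FPKM. Of 23 integrin and adhesion genes 16 were expressed, led by the LFA-1 chains Itgal (155, 159 and 136 FPKM) and Itgb2 (91.9, 93.3 and 84.1 FPKM), and Itgae was below 0.1 FPKM in every library.

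Over all lists, 531 of 761 genes were expressed, 85 were low and 145 near 0, with 18 at 0.5 to 1 FPKM and 24 at 1 to 2 FPKM on either side of the threshold.

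The 3 libraries were close to each other. Pearson correlations of log2(FPKM + 1) over 23028 entries without small RNA genes were 0.999 between libraries 1 and 2, 0.998 between 1 and 3 and 0.999 between 2 and 3. These are correlations across genes of libraries that share a protocol, and genes are not independent replicates. The median CV of expressed genes was 6.38%, and 90% of them were below 13.9%. Without library 1, 2 or 3 the median CV was 5.23%, 7.22% or 3.98%. These values rest on fewer libraries and compare with each other rather than with 6.38%. The highest value was at most 1.2 times the lowest for 7161 genes (74.0%), over 1.5 times for 270 (2.79%) and over 2 times for 26. The median counting error estimated from depth was 2.14%. In the level class from 1 to 10 FPKM the median CV was 7.55% and the counting error 3.81%, and above 1000 FPKM the median CV was 7.45% with a counting error of 0.326%. The spread of the highest genes was thus many times their counting error. Of 9777 genes that reached 1 FPKM in any library, 9571 did so in each, and 946 genes were among the 1000 highest in all 3.

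**Figure D4:**
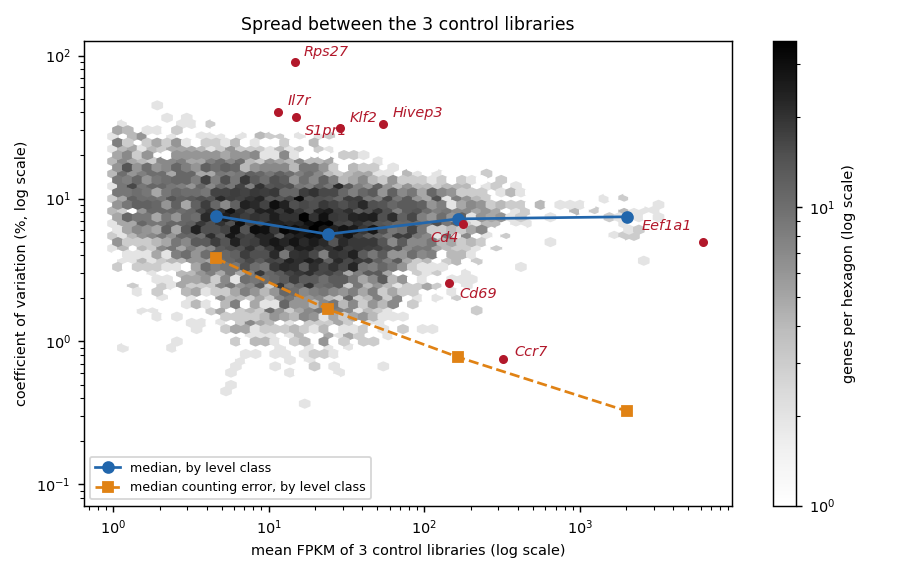
CV of the 3 control libraries (%, log scale) against mean FPKM (log scale) for expressed protein-coding genes, shaded by genes per hexagon. The blue line is the median CV by level class and the dashed line the counting error estimated from depth; Il7r (40.0%), S1pr1 (37.1%) and Klf2 (31.2%) lie above most genes and Ccr7 (0.749%) far below.

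Of the 10 expressed genes at 10 FPKM or more with the largest CV, Rps27 was first at 90.3%, but its entry shares its locus with a predicted gene and is uncertain. Il7r (40.0%), S1pr1 (37.1%) and Klf2 (31.2%) followed, genes of T cell homing and quiescence, along with Hivep3 (32.9%), Arhgef18 (31.7%), Mll1 (30.8%), Cbl (30.2%), Ikzf3 (29.7%) and Cdk6 (28.7%). All 10 were highest in library 1, against 31.3% of expressed genes, and 9 were lowest in library 3, against 38.9%. The length of the longest annotated transcript was over 3000 bases in 8 of the 10, against 51.3% of expressed genes with a known length.

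Differences between the libraries moved with transcript length. Each gene's position in a library was taken as log2 of its FPKM over its geometric mean in the 3 libraries. Genes of up to 1000 bases had median positions of -0.09, -0.04 and 0.13 in libraries 1, 2 and 3, and genes over 6000 bases had 0.10, 0.05 and -0.15. Spearman's rho of position with length was 0.48, 0.36 and -0.60 over 9669 genes with a known length, as a description. Longer transcripts therefore had higher FPKM in library 1 and lower FPKM in library 3, and the part of this in the results below was not tested beyond the centring by length class given beside them.

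With that in view, the mitosis and DNA replication lists and the naive surface list lay in opposite directions between the libraries. Mitosis genes were lowest in library 1 in 19 of 20 cases, where 43.9% of all expressed genes were lowest, and their median positions were -0.24, 0.07 and 0.16 in libraries 1, 2 and 3. After the median of the same length class was subtracted, 20 of 20 were lowest in library 1, with medians of -0.20, 0.05 and 0.16. The shares of all expressed genes in this paragraph are for values as deposited, and none is given after centring. Counts after centring therefore have no matching share and cannot be read as an excess. DNA replication genes were lowest in library 1 in 20 of 21 cases (21 of 21 after centring), serine and folate genes in 10 of 10 and ribosome biogenesis genes in 20 of 24 (23 of 24 after centring). All 21 expressed oxidative phosphorylation genes were highest in library 3, against 41.8% of all expressed genes, but these are short transcripts, and 14 of 21 were highest there after centring. The naive surface and homing genes lay the other way. Of 12, 9 were highest in library 1 and 10 lowest in library 3, against 31.3% and 38.9% of all expressed genes. Their medians were 0.20, -0.04 and -0.23, and after centring 11 were highest in library 1 with medians of 0.15, -0.03 and -0.16. That direction was not particular to naive genes. Cytokine receptor chain genes were highest in library 1 in 17 of 24 cases, against 31.3% of all expressed genes. NFAT, NR4A and EGR genes were lowest in library 3 in 10 of 11, against 38.9%. Proximal receptor signalling genes were lowest in library 3 in 18 of 25 cases (18 after centring). JAK, STAT and SOCS genes were lowest there in 15 of 19 (10 after centring), against 38.9% of all expressed genes. Activation surface genes differed little between libraries, with medians of -0.04, 0.03 and 0.01.

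**Figure D5:**
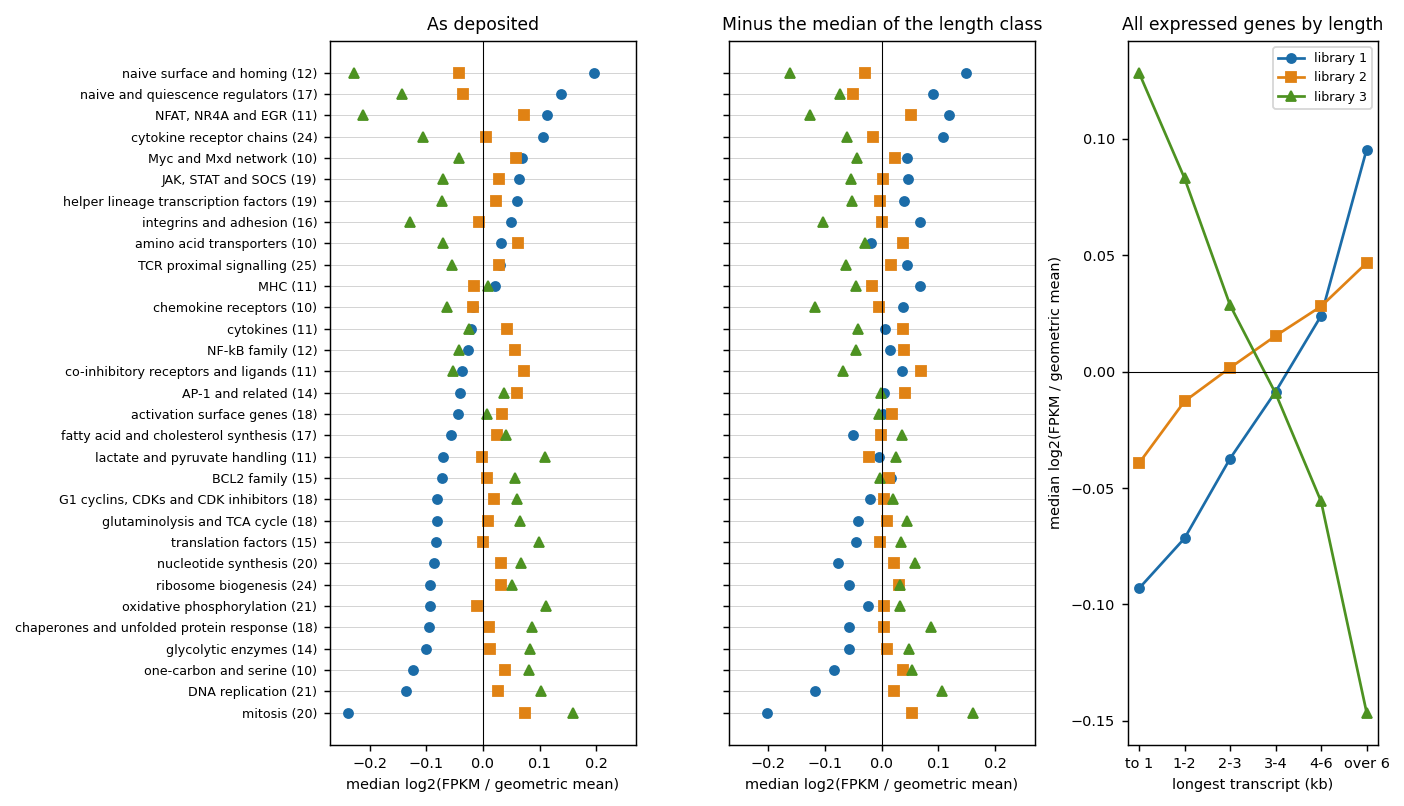
Median log2 of FPKM over the geometric mean of the 3 control libraries, for lists with at least 10 expressed members (member count in brackets), as deposited (left) and after subtracting the median of the length class (middle), and for all expressed genes by length of the longest transcript (right). Mitosis genes lie at -0.24 in library 1 and 0.16 in library 3, and naive surface genes at 0.20 and -0.23.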

How the data were processed

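RNA-seq values of 3 control libraries were described, with no comparison between groups and no test. Per the submitters' processing notes, the tools were TopHat, Cufflinks and Cuffdiff and the build was mm10; versions, settings, annotation and use of strand: not given in the sources used here. Per the file headers, the authors deposited FPKM for each gene in each library, which were used unchanged. Every library column was matched by name (0 unmatched). The authors' table of group comparisons was not used, and an entry without content was not analysed here. Some results that the naming rule selected are not reported here. Of 23849 entries, 821 were small RNA genes, whose inflated FPKM made up 26.5%, 34.9% and 24.6% of the summed FPKM; 758 entries had a repeated symbol and 27 a date as symbol. Protein-coding genes with a symbol used by 1 entry were counted (20126).

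Depth (M, 10 to the power of 6) was estimated from the whole-fragment steps of low FPKM in 267, 270 and 277 genes of at least 2 kb. The method was tested on simulated data whose lengths lay close to the annotated ones. That test could not show an error from a different length used by the authors. Approximate fragments follow from the estimated depth. Transcript lengths came from GENCODE vM21 and promoters from RefSeq. Calculations used Python 3.11.15, pandas 2.3.3, numpy 2.4.6 and matplotlib 3.10.9.

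The 48 lists hold 778 symbols, of which 13 had no entry, 4 had several and 7 were matched by an older symbol. The members and lists were chosen with earlier results of these data known. Named genes were the 20 with the highest mean, the 5 highest of each list, lineage-marking members, and the 10 with the largest CV at a mean of at least 10 FPKM; other genes named were chosen after their values were seen. Alternatives were other thresholds, scalings, pseudocounts and denominators, and leaving out each library. Scaling to the median of ratios between libraries and centring by length class were added after seeing the data.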

Additional observations from a re-analysis of the deposited data

How the results depend on the processing

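Over the settings tried, 9683 expressed genes became 10196 at a threshold of 0.5 FPKM, 8996 at 2 FPKM, 9571 when each library had to reach 1 and 10167 after rescaling without small RNA genes. Leaving out each library in turn gave 9674 to 9686 genes and 530 to 531 expressed list members. The share held by the 100 highest genes was 38.1% to 39.0% without 1 library, but 26.8% with every entry, small RNA genes included, in the denominator. The median CV was 3.98% to 7.22% without 1 library (lowest without control library 3). The median correlation was 0.997 over genes with a mean of at least 1 FPKM and 0.983 with small RNA genes kept. Of 288 list counts 4 moved by over 1.5 times: chemokines (5), interferon response (11) and B cell markers (1) at 0.5 FPKM, and myeloid markers (1) at 2 FPKM. Of 216 list positions 22 moved by over 0.05. The cause was not tested. No paired analysis was possible because the results come from no test. Depth limits genes under 0.0295 to 0.0332 FPKM, the level of 3 fragments over 2 kb.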

Other observations

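Several genes not usual for CD4+ T cells were expressed in all 3 libraries, and were chosen after their values were seen. Cxcr2, a neutrophil chemokine receptor gene, had 11.4, 11 and 16.8 FPKM (mean 13.1 ± 3.24, SD, n = 3), while its relative Cxcr1 stayed below 0.3 FPKM and the neutrophil genes S100a8 and S100a9 were listed at 0. Pecam1, an adhesion gene of endothelium that naive T cells also express, had 18.7, 13.8 and 12.8 FPKM, with the endothelial genes Cdh5 and Kdr listed at 0. Epcam, an epithelial adhesion gene, had 2.99, 2.21 and 2.14 FPKM, with Krt8 and Krt5 listed at 0. Both Pecam1 and Epcam were highest in library 1.

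Cd74, the invariant chain gene of MHC class II, had 14.4, 14.1 and 17.5 FPKM, whereas the class II chain genes H2-Aa and H2-Eb1 stayed below 0.6 FPKM in every library and Ciita, their master regulator, below 0.1 FPKM. Of 8 genes of immature thymocytes 3 were expressed, against 48.1% of all protein-coding genes, and the list summed to 18.8 to 28.9 FPKM. Most of that sum came from members not named here. Cd1d1, an expressed member, had 2.24, 1.66 and 1.77 FPKM. Rag1 and Rag2, the recombinase genes, were below 0.02 FPKM, and Dntt, the terminal transferase gene, had 0.247, 0.194 and 0.106 FPKM.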
